A study of Mus musculus with 16 samples.

Results

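The 9 genes described here encode MHC class I heavy chains and the proteins that supply and load their peptides: H2-K1, H2-K2, H2-D1, H2-T23, Tap1, Tap2, Tapbp, Psmb8 and Psmb9. They were chosen by name, and every probe whose accession in the scanner files matched one of these symbols was taken. That gave 11 probes for 9 of the 20660 genes with a symbol on the array. H2-K1 and H2-K2 each had 2 probes, numbered here from the brighter to the dimmer, and the other genes had 1. All 9 genes lie on chromosome 17. H2-K2 is annotated as a transcribed pseudogene. Class I genes are close paralogs, so a probe may also bind transcripts of its neighbours, and the identity behind each class I probe is uncertain.

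RNA was measured in livers of female B6C3F1 mice, a hybrid of the C57BL/6 and C3H strains, which carry different MHC haplotypes. Furan, a volatile ring compound formed when food is heated, is turned into a reactive product by enzymes of the hepatocyte. The furan groups received 8 mg furan per kg body weight in corn oil by gavage for 21 days, and the control groups received corn oil alone on the same schedule. All livers were collected 4 h after the last dose, fixed in formalin and embedded in paraffin. The 4 groups were furan with 18 h in formalin (samples 41, 42, 43 and 44), control with 18 h in formalin (2, 3, 4 and 6), furan with 3 weeks in formalin (41, 42, 43 and 44) and control with 3 weeks in formalin (2, 4 and 6). The 3-week control sample 2 is the mean of arrays 2.1 and 2.2, which share that number and correlated at r = 0.923 across tested probes. The animals had been bought at 5 to 6 weeks of age. RNA came from 1 section of 10 µm at 18 h and from 2 such sections at 3 weeks, so the time in formalin and the number of sections cannot be told apart. The design text gives 4 biological replicates per dose group, and the labels do not say whether a number marks the same animal at both times. The RNA integrity numbers in the labels are low for all samples. Each of 16 arrays held the liver sample in Cy5 and a pool of all samples in Cy3, with no dye swap.

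Of 55681 probes per array, 29690 were bright enough to test. Probes well above background made up 51.9% to 55.2% of each array in furan livers and 44.3% to 50.1% in control livers at 18 h. At 3 weeks it was 35.9% to 41.4% in furan livers and 32.3% to 36.7% in control livers. Median signal over background ranged from 2.03 to 2.67, the Cy5 channel had no saturated spot, and precision is limited by how many arrays there are. All 8 hepatocyte markers were bright enough to test, so the defining markers of the labelled tissue were present. Both slides carried 2 arrays from each of the 4 groups.

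MHC class I molecules are displayed on nearly all nucleated cells and show short peptides from inside the cell to CD8+ T cells. The proteasome cuts proteins, and its interferon-inducible subunits Psmb8 and Psmb9 change which peptides it makes. Tap1 and Tap2 form the pump that carries peptides into the endoplasmic reticulum. There Tapbp, or tapasin, bridges the pump to the heavy chain while a peptide is loaded. H2-K1 and H2-D1 encode classical heavy chains, and H2-T23 encodes Qa-1, a less variable class I molecule that presents leader peptides of other class I chains to NK cell receptors. Hepatocytes carry little class I protein at rest, while sinusoidal endothelium and Kupffer cells carry more.

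Promoters were taken from the RefSeq table for mouse build GRCm38.p6, which covers the bases from 250 before to 50 after each gene start and holds 7 of the 9 genes, H2-K2 and Tap2 not among them. Those of the tested genes H2-K1, H2-D1, H2-T23, Psmb8 and Psmb9 are shown because their changes are compared below. The sequence comes from C57BL/6, 1 of the 2 parent strains. Capitals mark matches, on either strand, to 3 motifs: the core of the interferon-stimulated response element (GAAA, any 2 bases, GAAA), the gamma-activated site (TTC, any 3 bases, GAA) and the kappa B site bound by NF-kappa B (GGG, any 5 bases, CC). Overlapping kappa B matches run together.
H2-K1 (chr17:34000298-34000597, minus strand): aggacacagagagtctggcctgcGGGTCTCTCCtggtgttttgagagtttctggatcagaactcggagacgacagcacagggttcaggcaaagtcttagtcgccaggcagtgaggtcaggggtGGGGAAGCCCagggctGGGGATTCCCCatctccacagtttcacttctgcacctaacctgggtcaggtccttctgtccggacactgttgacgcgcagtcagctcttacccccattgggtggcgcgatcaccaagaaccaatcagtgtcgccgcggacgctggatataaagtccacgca
H2-D1 (chr17:35262844-35263143, plus strand): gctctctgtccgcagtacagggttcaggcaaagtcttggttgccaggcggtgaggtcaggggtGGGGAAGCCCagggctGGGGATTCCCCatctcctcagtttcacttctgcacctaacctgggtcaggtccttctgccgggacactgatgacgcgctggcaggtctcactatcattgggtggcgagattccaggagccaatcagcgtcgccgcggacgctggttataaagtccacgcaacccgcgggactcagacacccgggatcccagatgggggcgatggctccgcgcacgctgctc
H2-T23 (chr17:36032652-36032951, minus strand): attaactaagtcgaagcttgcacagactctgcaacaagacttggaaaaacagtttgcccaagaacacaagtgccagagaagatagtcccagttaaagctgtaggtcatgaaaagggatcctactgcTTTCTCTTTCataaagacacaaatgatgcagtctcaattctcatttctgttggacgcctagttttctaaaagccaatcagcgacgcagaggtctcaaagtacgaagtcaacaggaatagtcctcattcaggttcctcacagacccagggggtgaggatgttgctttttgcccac
Psmb8 (chr17:34197945-34198244, plus strand): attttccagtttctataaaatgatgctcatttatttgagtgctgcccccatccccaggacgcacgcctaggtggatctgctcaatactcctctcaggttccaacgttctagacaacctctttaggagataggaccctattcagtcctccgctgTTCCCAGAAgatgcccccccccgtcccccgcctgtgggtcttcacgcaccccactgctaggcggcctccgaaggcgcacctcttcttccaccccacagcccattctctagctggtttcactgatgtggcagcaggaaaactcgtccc
Psmb9 (chr17:34187281-34187580, minus strand): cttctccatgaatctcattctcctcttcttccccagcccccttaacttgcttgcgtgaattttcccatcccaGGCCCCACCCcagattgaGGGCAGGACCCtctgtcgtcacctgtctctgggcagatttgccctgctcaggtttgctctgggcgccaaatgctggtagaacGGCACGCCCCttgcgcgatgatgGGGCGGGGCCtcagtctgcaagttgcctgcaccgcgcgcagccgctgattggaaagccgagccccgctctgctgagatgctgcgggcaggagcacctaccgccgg

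The promoters of H2-K1 and H2-D1 resemble each other, with a longest identical run of 47 bases. Both hold the overlapping pair of kappa B matches, from -111 to -101 relative to the start used above in H2-K1 and from -171 to -161 in H2-D1. A second listed H2-K1 start, not shown, places the same pair from -125 to -115. In all, H2-K1 held 4 kappa B matches and H2-D1 held 3. H2-T23 held 1 match to the response element core, from -124 to -115 on the opposite strand. Psmb8 held 1 gamma-activated site, from -97 to -89. Psmb9 and Tap1 are transcribed away from each other and share 275 bases of this window, and each held 5 kappa B matches. None of the 3 motifs was found in the window of Tapbp. Only exact matches to the letters were counted, so a promoter without a match may still hold a variant of the site. Of all 32851 promoters of this length, 3.44% held the response element core, 8.3% the gamma-activated site and 50.8% the kappa B letters, so a kappa B match is common.

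**Figure D1:**
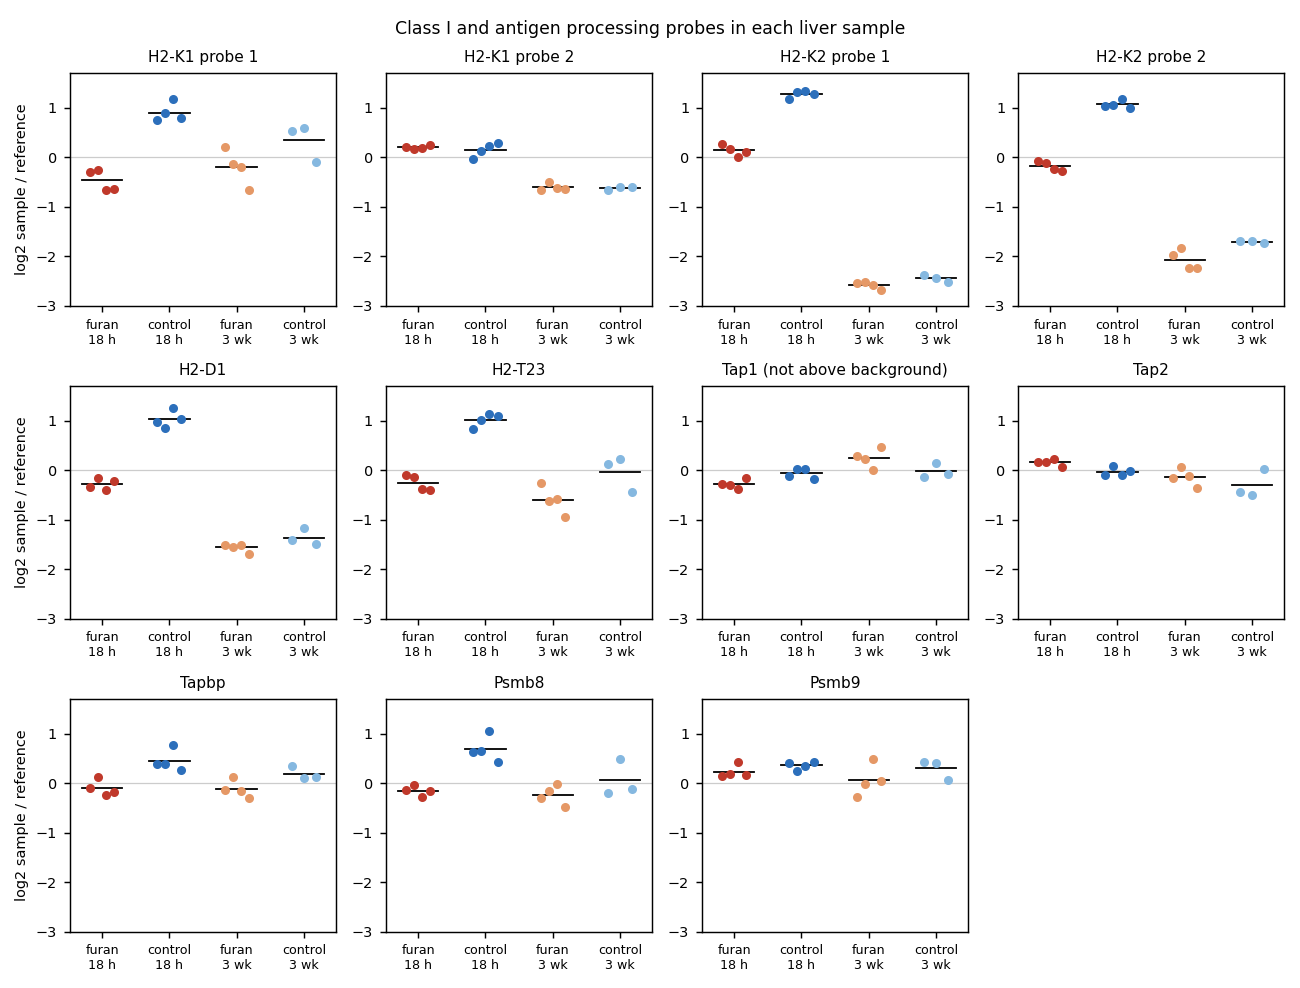
Log2 ratio of liver sample over pooled reference for each of the 11 probes. Each point is 1 sample, and the bar is the group mean over 4 samples (3 for control at 3 weeks). The 18 h furan points of H2-K1 probe 1, both H2-K2 probes, H2-D1, H2-T23, Tapbp and Psmb8 lie below every 18 h control point, and the H2-K2 and H2-D1 points at 3 weeks lie below all their 18 h points.

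At 18 h in formalin the class I heavy chain probes were lower in furan livers, by 2.203-fold to 2.57-fold on 5 of the 6 probes. Psmb8 and Tapbp were lower by 1.80-fold and 1.47-fold, while Psmb9, Tap2 and the second H2-K1 probe did not pass the test. Limma with Benjamini-Hochberg adjustment over all tested probes, at an adjusted p under 0.05, called 7 of the 10 tested member probes lower and 0 higher. Of all tested probes 47.2% were called in this comparison, 26.8% as lower and 20.4% as higher. Of the brightest 2969 tested probes, which hold those 5 class I probes, 30.6% were called lower. The 4 furan samples lay below the 4 control samples on the same 7 probes, against 21.3% of all tested probes. The median over the 10 probes was -0.99 on the log2 scale, beside -0.05 over all tested probes and 0.01 over the brightest 2969. All of these differences are relative to the centre of each array, and in bulk tissue fewer cells of a type and less RNA per cell cannot be told apart.

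H2-K1 probe 1 gave log2 ratios of -0.29, -0.25, -0.65 and -0.63 in furan livers 41 to 44, against 0.75, 0.89, 1.17 and 0.80 in control livers 2, 3, 4 and 6. Every furan value was negative and every control value positive, so the groups stood apart by more than their own range. The fitted difference was -1.36 (SE 0.09, adjusted p = 7.77e-06, limma). Only 0.165% of all tested probes had a lower value.

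H2-K1 probe 2, which is printed as 10 spots on each array, did not follow the first. It gave 0.21, 0.16, 0.19 and 0.25 in furan livers, against -0.03, 0.12, 0.23 and 0.30 in control livers. The groups overlapped, and the difference was 0.05 (SE 0.09, 95% interval -0.16 to 0.25, adjusted p = 0.702). The 10 spots differed on an array by a median SD of 0.0674 on the log2 scale. Its signal was lower than that of probe 1, at a mean of 2024 against 7484 in furan livers, but it was above background on all 16 arrays. Within each sample the ratio of probe 1 minus that of probe 2 was -0.88 to -0.41 in furan livers and 0.50 to 0.95 in control livers. Those ranges do not overlap, and the exact two-sided permutation test gave p = 0.0286, the smallest that 4 against 4 samples allow. After Benjamini-Hochberg adjustment over 6 such comparisons it was 0.0858. A comparison at that smallest p cannot pass this adjustment on its own.

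Both H2-K2 probes were lower in furan livers. Probe 1 gave 0.26, 0.18, 0.01 and 0.11 in furan livers, against 1.18, 1.32, 1.34 and 1.27 in control livers. Probe 2 gave -0.07, -0.11, -0.23 and -0.27 in furan livers, against 1.04, 1.07, 1.17 and 1.00 in control livers. The spread within a group was a small part of the gap between the groups. Probe 1 fell by 1.14 (SE 0.08, adjusted p = 1.07e-05) and probe 2 fell by 1.24 (SE 0.08, adjusted p = 6.68e-06, limma). The ratio of probe 1 minus that of probe 2 differed by 0.10 between furan and control livers (exact permutation p = 0.114).

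H2-D1 gave -0.33, -0.16, -0.40 and -0.22 in furan livers, against 0.97, 0.85, 1.25 and 1.04 in control livers. H2-T23 gave -0.09, -0.14, -0.37 and -0.40 in furan livers, against 0.83, 1.01, 1.13 and 1.09 in control livers. For both genes all furan values were below 0 and all control values above it. H2-D1 fell by 1.30 on the log2 scale (SE 0.10, adjusted p = 1.53e-05) and H2-T23 by 1.26 (SE 0.09, adjusted p = 1.07e-05). A fall of at least 2-fold was seen on 5 member probes, those of H2-K1 (probe 1), H2-K2, H2-D1 and H2-T23, beside 1.29% of all tested probes.

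**Figure D2:**
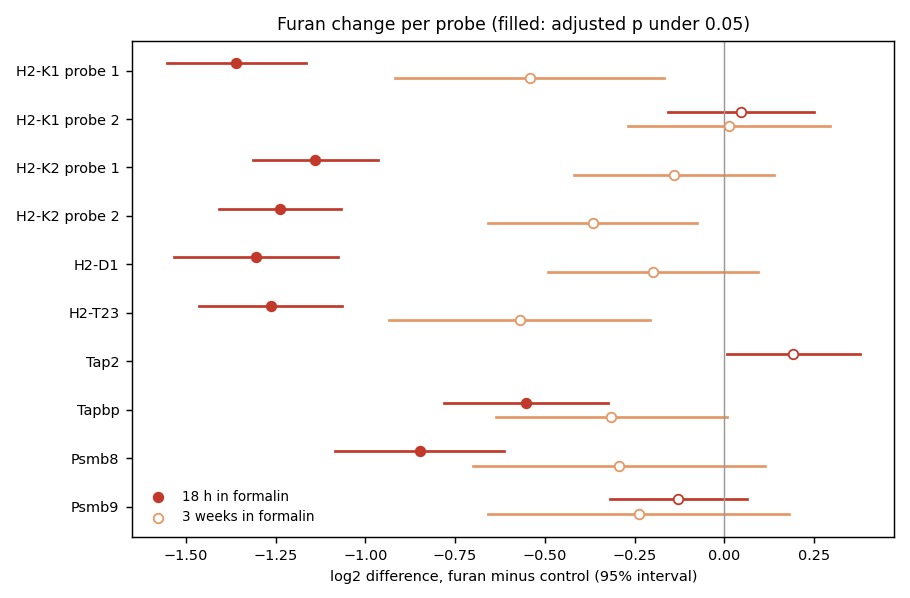
Difference between furan and control livers on the log2 scale for each tested probe, with its 95% interval, at 18 h and at 3 weeks in formalin; filled points have an adjusted p under 0.05. At 18 h 7 points are filled and lie between -1.36 and -0.55, and at 3 weeks none is filled. Tap2 is not drawn at 3 weeks, where it was not well above background.

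Among the genes that make and load the peptides, Psmb8 passed the test at 18 h and Psmb9 did not. The exact test of the difference between these immunoproteasome subunits did not pass after adjustment. With so few samples it could not pass on its own, so it does not decide whether they differ. Psmb8, or LMP7, gave -0.15, -0.05, -0.27 and -0.16 in furan livers, against 0.64, 0.66, 1.05 and 0.43 in control livers, with no overlap. It fell by 0.85 (SE 0.11, adjusted p = 0.000147). Psmb9, or LMP2, gave 0.14, 0.19, 0.42 and 0.16 in furan livers, against 0.41, 0.24, 0.34 and 0.43 in control livers. These ranges overlapped, and the difference was -0.13 (SE 0.09, 95% interval -0.32 to 0.06, adjusted p = 0.242). Within samples Psmb8 minus Psmb9 was -0.70 to -0.24 in furan livers and -0.01 to 0.70 in control livers (exact permutation p = 0.0286, the smallest possible; 0.0858 after adjustment). The pooled reference of these dimmer probes also stood apart between the arrays, at 553 to 636 with furan and 710 to 803 in controls for Psmb8. For Psmb9 it was 548 to 658 with furan and 661 to 857 in controls. The part of this difference in the results was not tested.

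Tapbp gave -0.10, 0.12, -0.25 and -0.18 in furan livers, against 0.38, 0.38, 0.77 and 0.26 in control livers. The highest furan value, in sample 42, lay below the lowest control value, in sample 6. Its reference signal was 1252 to 1409 on the furan arrays and 1437 to 1935 on the control arrays. Tapbp fell by 0.55 (SE 0.10, adjusted p = 0.00152). Tap2 was dim. It was well above background on all 4 furan arrays and on 3 of 4 control arrays, and gave 0.17, 0.17, 0.23 and 0.08 in furan livers, against -0.11, 0.09, -0.09 and -0.02 in control livers. The ranges overlapped and the difference was 0.19 (SE 0.08, adjusted p = 0.0821). Tap1, printed as 10 spots, was well above background on 0 of 16 arrays, so it was not tested and no fold is given.

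The same 7 probes were called on each slide alone (2 furan and 2 control arrays each), with a median over the members of -1.03 on slide 1 and -0.96 on slide 2. Over all 29690 tested probes, 8151 were called on slide 1, 5075 of them lower, and 7049 on slide 2, 4076 of them lower. With each array centred on its median instead of by loess, the median over all tested probes became 0.10 and the 5 falls of class I probes became -0.84 to -0.61, Tapbp lost its call at -0.09 (adjusted p = 0.612) and H2-K1 probe 2 was called higher at 0.55 (adjusted p = 0.000916). The calls over all probes then split into 9863 higher and 2680 lower, beside 6056 and 7969 with loess. With the share of probes above background as a covariate, Psmb8 and Tapbp lost their calls (adjusted p = 0.0653 and 0.171), at differences of -1.01 and -0.63, and the calls over all tested probes dropped to 596, 486 of them lower. The standard errors rose from 0.11 to 0.27 for Psmb8 and from 0.10 to 0.27 for Tapbp. At 18 h that share did not overlap between furan and control arrays, so this fit can hardly tell it from furan.

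Some markers of liver cell types were called at 18 h as well, where 26.8% of all tested probes were called lower and 20.4% higher. The pan-leukocyte and lymphocyte counts given below lie near or under those shares. Of 8 hepatocyte markers 6 were lower and 0 higher, among them the transthyretin gene Ttr at -0.90 (SE 0.08) and the albumin gene Alb at -0.72 (SE 0.10). The log2 of their summed ratios was 2.91 to 3.11 in furan livers and 3.57 to 3.68 in control livers. Of 6 pan-leukocyte markers 2 were lower and 1 higher, with sums of 2.57 to 2.70 in furan livers and 2.70 to 3.39 in control livers. Of 10 tested macrophage and Kupffer cell markers 4 were lower and 1 higher, with sums of 3.19 to 3.38 in furan livers and 3.25 to 4.08 in control livers. Timd4 and Cd68 were not tested, and 11 of the 12 listed genes had a matched probe. Of 8 markers of sinusoidal endothelium 4 were lower and 2 higher, with sums of 3.01 to 3.14 in furan livers and 3.19 to 3.27 in control livers. Of 17 lymphocyte markers only 7 could be tested, 1 higher and 1 lower. The T cell markers Cd3d, Cd3g, Cd8a and Cd8b1 and the B cell markers Cd79a and Ms4a1 were not tested. A matched probe was found for 16 of the 17 listed genes. The part of these shifts, and of the higher share of probes above background in furan livers, in the class I differences was not tested.

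The other genes of the pathway were counted from lists of related genes, each gene by its brightest tested probe, beside a median of 0.02 over all 13052 tested genes with a symbol. Every list count at 18 h stands beside the 26.8% lower and 20.4% higher of all tested probes. Of 15 tested other class I heavy and light chains, 7 were lower and 4 higher, with a median of -0.30. H2-Q7 and H2-Q2, nonclassical heavy chains close in sequence to H2-K1 and H2-D1, differed by -1.02 (SE 0.08) and -0.95 (SE 0.08), although another H2-Q2 probe differed by -0.07 (adjusted p = 0.5). Fcgrt, the neonatal receptor for IgG and albumin, fell by 1.05 (SE 0.09). B2m, the light chain shared by these molecules, named here after its value was seen, fell by 0.99 (SE 0.10, adjusted p = 4.37e-05). The 4 called higher, also named after their values were seen, were H2-Q1 at 0.47, H2-M3 at 0.44, Hfe at 0.40 and H2-T10 at 0.24. The list thus did not move in 1 direction.

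Of 15 tested partner genes that supply and load peptides, a list that leaves out the members Psmb8, Psmb9, Tap1, Tap2 and Tapbp, 7 were higher and 1 lower, with a median of 0.27. Calr, the chaperone calreticulin of the loading complex, rose by 0.77 (SE 0.08, adjusted p = 5.39e-05), and Canx, calnexin, rose by 0.32 (SE 0.08). Psmb5, the standard proteasome subunit that Psmb8 replaces, rose by 0.33 (SE 0.08), but another of its probes fell by 0.40 (adjusted p = 0.00535).

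Of 19 tested regulators of class I transcription and interferon signalling, 5 were higher and 6 lower, with a median of 0.10. These counts lie near the 20.4% higher and 26.8% lower of all tested probes. Irf2, a factor that binds the interferon response element, fell by 0.78 (SE 0.10). Rela, an NF-kappa B subunit, rose by 0.54 (SE 0.08) and Jak2, a kinase of cytokine receptors, by 0.44 (SE 0.08). Of 24 tested interferon-induced genes 8 were higher and 4 lower, with a median of 0.07. Cxcl10, a chemokine for T cells, rose by 0.97 (SE 0.09) and Isg15, a ubiquitin-like protein, by 0.78 (SE 0.09). Iigp1, a GTPase of interferon-gamma defence, fell by 0.75 (SE 0.10), with -0.59 on another probe. The calls of the named genes in this and the preceding 2 paragraphs had adjusted p values of at most 0.00749, apart from H2-T10 (0.0379).

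Of 9 tested MHC class II genes 3 were lower and 1 higher, with a median of -0.17, beside 26.8% lower and 20.4% higher of all tested probes. H2-Aa, a class II alpha chain, fell by 1.18 (SE 0.18), Cd74, the invariant chain, by 1.03 (SE 0.17) and H2-DMa, a chain of the class II peptide editor, by 0.49 (SE 0.09), with adjusted p values of at most 0.00165. The called class II gene that was higher was H2-DMb1, the partner chain of H2-DMa, at 0.49 (SE 0.14, adjusted p = 0.0128). At 3 weeks 0 genes of any of these lists were called, against 0.118% of all tested probes. Those with the smallest p there were H2-Q4 at -0.31 and Hfe, a class I-like regulator of iron uptake, at 0.34, Erap1, the aminopeptidase that trims peptides, at 0.58 and Psmb7 at -0.45, Rela at 0.39 and Irf9 at 0.32. For the interferon-induced and class II lists they were Irgm1 at -0.66 (another of its probes was at 0.13), Gbp6 at -0.44, H2-DMb1 at 0.22 and Cd74 at -0.21 (adjusted p from 0.1 to 0.644 for the probes chosen by brightness).

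**Figure D3:**
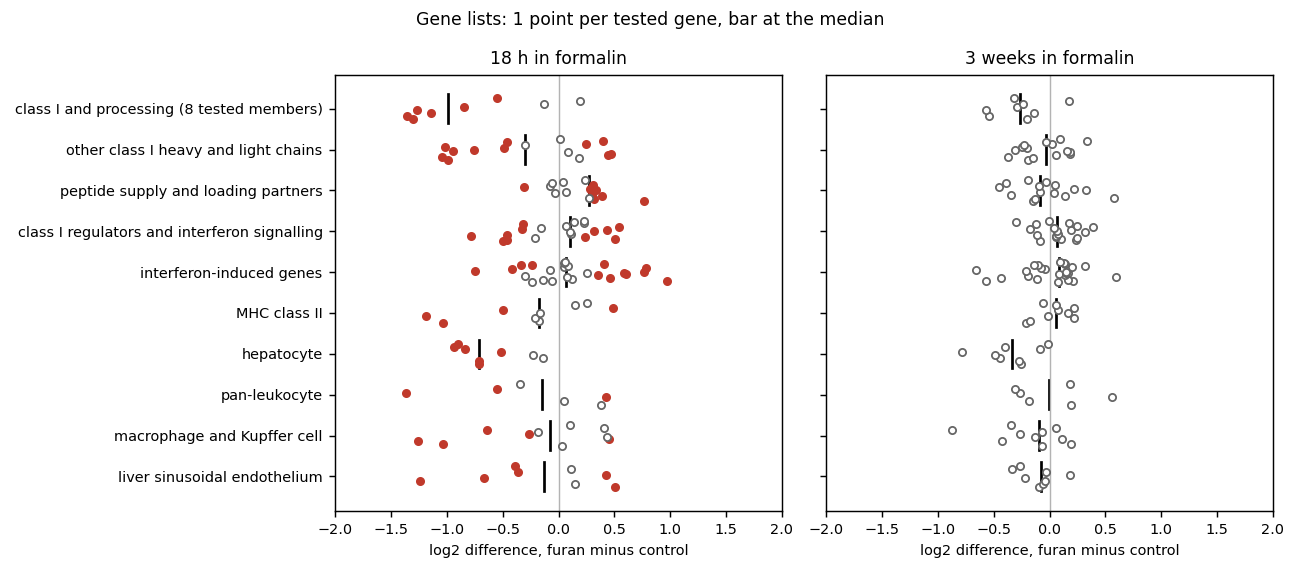
Difference between furan and control livers on the log2 scale, 1 point per tested gene of each list, at 18 h and at 3 weeks in formalin; filled points have an adjusted p under 0.05 and the bar is the list's median. At 18 h the 8 tested members have a median of -0.99, beside -0.30 for the other class I chains, 0.27 for peptide supply and -0.71 for hepatocyte markers, and at 3 weeks no point is filled.

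At 3 weeks in formalin no member probe passed the test between furan and control livers. Limma called 0 of the 10 tested member probes, 3 had an unadjusted p under 0.05 (13.8% of all tested probes did), and 0.118% of all tested probes were called. H2-K1 probe 1 gave 0.21, -0.13, -0.20 and -0.67 in furan livers, against 0.54, 0.59 and -0.09 in control livers, so the groups overlapped through furan sample 41 and control sample 6. The difference was -0.54 (SE 0.17, 95% interval -0.92 to -0.17, adjusted p = 0.213). H2-T23 gave -0.26, -0.61, -0.57 and -0.95 in furan livers, against 0.13, 0.23 and -0.44 in control livers, a difference of -0.57 (SE 0.16, adjusted p = 0.194). Control sample 6 lay within the furan range on both probes.

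H2-K2 probe 1 gave -2.55, -2.51, -2.58 and -2.68 in furan livers, against -2.37, -2.43 and -2.52 in control livers. Its difference was -0.14 (SE 0.13, adjusted p = 0.677). H2-K2 probe 2 gave -1.97, -1.84, -2.24 and -2.22 in furan livers, against -1.68, -1.70 and -1.73 in control livers. Every furan value was lower, but the difference of -0.37 (SE 0.13) had an adjusted p of 0.258. H2-D1 gave -1.51, -1.54, -1.50 and -1.68 in furan livers, against -1.42, -1.18 and -1.49 in control livers, also without overlap, a difference of -0.20 (SE 0.13, adjusted p = 0.551). The groups stood apart with furan lower on these 2 member probes, against 5.85% of all tested probes.

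The other members overlapped between the groups at 3 weeks. Tapbp gave -0.14, 0.12, -0.17 and -0.31 in furan livers, against 0.35, 0.10 and 0.13 in control livers, with only furan sample 42 inside the control range (difference -0.32, SE 0.14, adjusted p = 0.371). Psmb8 gave -0.29, -0.15, -0.01 and -0.49 in furan livers, against -0.19, 0.48 and -0.12 in control livers (difference -0.29, SE 0.18, adjusted p = 0.521). Psmb9 gave -0.29, -0.01, 0.50 and 0.04 in furan livers, against 0.43, 0.40 and 0.06 in control livers (difference -0.24, SE 0.19, adjusted p = 0.626). The second H2-K1 probe gave -0.67 to -0.49 in furan livers and -0.66 to -0.59 in control livers (difference 0.01, SE 0.13). Tap2 was well above background on 0 of the 3-week arrays in both groups, so no change is given for it.

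In a fit of all 15 samples, which shares 1 estimate of the spread, 3 of these probes were called lower at 3 weeks: H2-K1 probe 1, H2-K2 probe 2 and H2-T23, with adjusted p values of 0.037, 0.0417 and 0.0295. That fit called 1299 of all 29690 tested probes, 633 of them lower, beside 35 in the fit of the 3-week samples alone. The median over the 10 probes was -0.27 at 3 weeks, beside -7e-04 over all tested probes.

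Whether the furan difference itself depended on the time in formalin was tested over all 15 samples as the 3-week difference minus the 18 h difference. It passed on 5 of the 10 tested member probes, all with a smaller fall at 3 weeks, while 12.8% of all tested probes passed, 7.82% in this direction. H2-D1 differed by 1.105 (SE 0.16, adjusted p = 0.00098), H2-K2 probe 1 by 1.00 (SE 0.12, adjusted p = 0.000694) and H2-K2 probe 2 by 0.87 (SE 0.13, adjusted p = 0.0012). H2-K1 probe 1 differed by 0.82 (SE 0.19, adjusted p = 0.0107) and H2-T23 by 0.69 (SE 0.19, adjusted p = 0.023). Psmb8 differed by 0.56 (SE 0.21, adjusted p = 0.0905), and Tapbp and Psmb9 by 0.24 and -0.11 (adjusted p = 0.376 and 0.755). Without the slide as a term, H2-K1 probe 1 and H2-T23 lost their calls (adjusted p = 0.0531 and 0.0567), which left 3. H2-T23 also lost its call with median centring (0.54, adjusted p = 0.125), without the filter on dim probes (0.69, adjusted p = 0.0515) and without control sample 6 of the 3-week group (0.54, adjusted p = 0.0709), each leaving 4. Psmb8 gained one without control sample 4 of that group, at 0.73 (adjusted p = 0.0264).

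The time in formalin itself went with larger differences on some class I probes than furan did. In furan livers 6 of 10 member probes were lower at 3 weeks than at 18 h and 0 were higher, where 67.1% of all tested probes were called and 32% were lower. In control livers 7 were lower and 0 higher, where 59.3% were called and 30.8% were lower. H2-K2 probe 1 fell by 2.72 (SE 0.08, adjusted p = 8.27e-13) in furan livers and fell by 3.72 (SE 0.09, adjusted p = 2.05e-13) in control livers, or 13.2-fold. Only 0.00337% of all tested probes, that is 1 probe, had a lower value in control livers.

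H2-K2 probe 2 fell by 1.90 (SE 0.09) in furan livers and fell by 2.77 (SE 0.10) in control livers. H2-D1 fell by 1.28 (SE 0.11) in furan livers and fell by 2.39 (SE 0.11) in control livers. The log2 ratio of H2-T23 fell by 0.35 (SE 0.13, adjusted p = 0.0224) in furan livers and fell by 1.04 (SE 0.14) in control livers. Its Cy5 signal in furan livers overlapped between the times, at 6514 to 8150 with 18 h and 6511 to 9505 with 3 weeks. H2-K1 probe 2, whose furan difference did not pass the test at either time with loess, fell by 0.81 (SE 0.09) in furan livers and fell by 0.77 (SE 0.10) in control livers. H2-K1 probe 1 fell by 0.56 in control livers (SE 0.14, adjusted p = 0.0023), while in furan livers it differed by 0.26 in the other direction (SE 0.13, adjusted p = 0.0842). The 2 probes of H2-K1 thus gave opposite signs in furan livers, only 1 of them past the threshold.

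Psmb8 fell by 0.63 in control livers (SE 0.15, adjusted p = 0.00194), and differed by -0.08 in furan livers (SE 0.14, adjusted p = 0.64). Tapbp differed by -0.02 in furan livers and -0.26 in control livers, and Psmb9 by -0.17 and -0.06 in the same order, none past the threshold (adjusted p of at least 0.0824). Tap2 was not well above background at 3 weeks, so only a bound can be given. The bound comes from Cy5 signals normalized by loess against Cy3 and by quantile scaling of the average intensity, and was not tested. On that Cy5 scale Tap2 was at least 1.33-fold lower at 3 weeks in furan livers and at least 1.104-fold lower in control livers. This is not a bound on the ratio of sample over reference, whose fitted fall in furan livers was smaller, at 1.23-fold. The fitted log2 ratio of Tap2 differed by -0.30 in furan livers (limma, adjusted p = 0.041) and by -0.28 in control livers (adjusted p = 0.0815). Leaving out samples 41, 42 or 43 of the 18 h furan group, or 41, 43 or 44 of the 3-week furan group, ended the call of Tap2 (adjusted p from 0.0601 to 0.138), and leaving out 42 or 44 of the 3-week furan group ended that of H2-T23 (0.0731 and 0.0788). Other calls appeared when a 3-week sample was left out. In furan livers Psmb9 was called at -0.30 without sample 43 (adjusted p = 0.0439), and H2-K1 probe 1 was called higher at 0.355 without sample 44 (adjusted p = 0.0228). In control livers Tapbp was called at -0.34 without sample 2 (adjusted p = 0.0444) and Tap2 at -0.46 without sample 6 (adjusted p = 0.00467). With median centring the median of all tested probes lay at -0.29 in furan livers and -0.24 in control livers, 9 member probes were called lower in each, and Tapbp was at -0.87 and -0.88. The calls over all probes then split into 4307 higher and 14162 lower in furan livers and 4060 and 12550 in control livers, beside 10426 and 9509 in furan livers and 8476 and 9145 in control livers with loess.

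**Figure D4:**
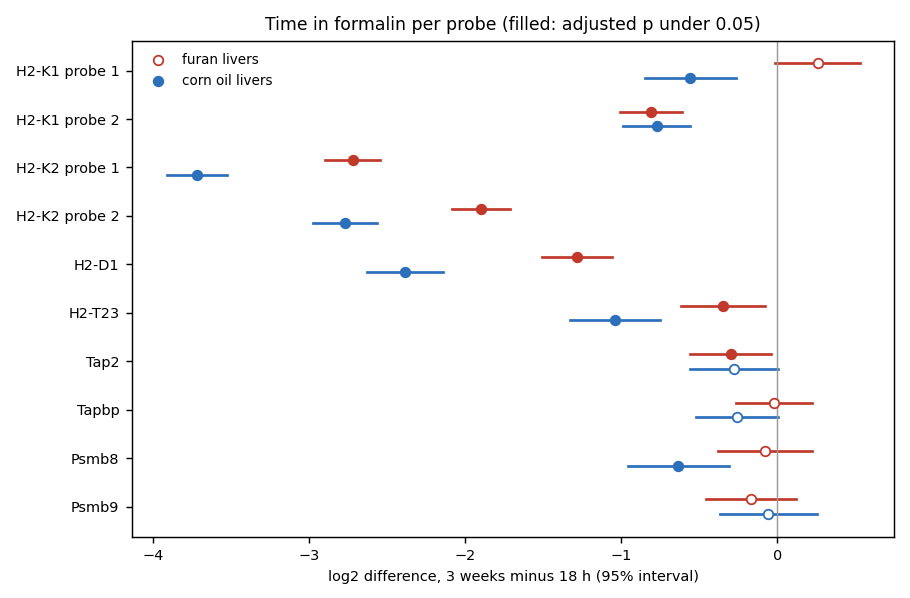
Difference between 3 weeks and 18 h in formalin on the log2 scale for each tested probe, with its 95% interval, in furan livers and in corn oil control livers; filled points have an adjusted p under 0.05. The H2-K2 and H2-D1 probes lie lowest in both, down to -2.72 in furan livers and -3.72 in control livers, and Tapbp and Psmb9 lie near 0. The Tap2 points are fitted values, with no probe signal well above background at 3 weeks.

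Seen across all 4 groups, the class I probes did not share 1 order. On both H2-K2 probes and on H2-D1 the group means ran, from low to high, furan at 3 weeks, control at 3 weeks, furan at 18 h and control at 18 h, the first 2 being neighbours that did not pass the test. For H2-D1 these were -1.56 ± 0.08, -1.36 ± 0.16, -0.28 ± 0.11 and 1.03 ± 0.17 (SD, n = 4, 3, 4 and 4). On H2-K1 probe 1 both furan groups came first, at -0.46 ± 0.21 with 18 h and -0.20 ± 0.36 with 3 weeks, then control at 3 weeks with 0.35 ± 0.38 and control at 18 h with 0.90 ± 0.19, and neither the 2 furan groups nor the 2 groups at 3 weeks passed the test against each other. H2-T23 ran from furan at 3 weeks (-0.60 ± 0.28) over furan at 18 h (-0.25 ± 0.16) and control at 3 weeks (-0.03 ± 0.36) to control at 18 h (1.01 ± 0.13), and its 2 middle groups were not tested against each other. Psmb9 means were all between 0.06 and 0.36, and none of its comparisons passed the test.

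Both channels were inspected, since every ratio rests on the pooled reference. For H2-K2 probe 1 the Cy5 signal was 16721 to 20547 in 18 h furan livers and 36240 to 45158 in 18 h control livers, beside 4879 to 5144 in 3-week furan livers and 4076 to 5183 in 3-week control livers. The Cy3 signal of the same pool was 14679 to 18142 on the 18 h furan arrays and 14269 to 17271 on the 18 h control arrays. On the 3-week arrays it was higher, at 26365 to 30485 with furan and 20733 to 25474 in controls. The reference signal of this probe thus overlapped between furan and control arrays at 18 h, and it differed between the times in formalin although the pool was the same. The part of this shift in the formalin time difference was not tested. The Cy5 signal of H2-K2 probe 1 alone was lower at 3 weeks in both treatments, with no overlap. This did not hold for every class I probe. On H2-K1 probe 1 in furan livers the Cy5 signal was 6637 to 8391 with 18 h and 12037 to 14493 with 3 weeks. On H2-T23 in furan livers the Cy5 ranges overlapped. Its Cy3 signal there was 7966 to 9941 with 18 h and 10243 to 13361 with 3 weeks. The part of this Cy3 shift in the H2-T23 difference was not tested.

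**Figure D5:**
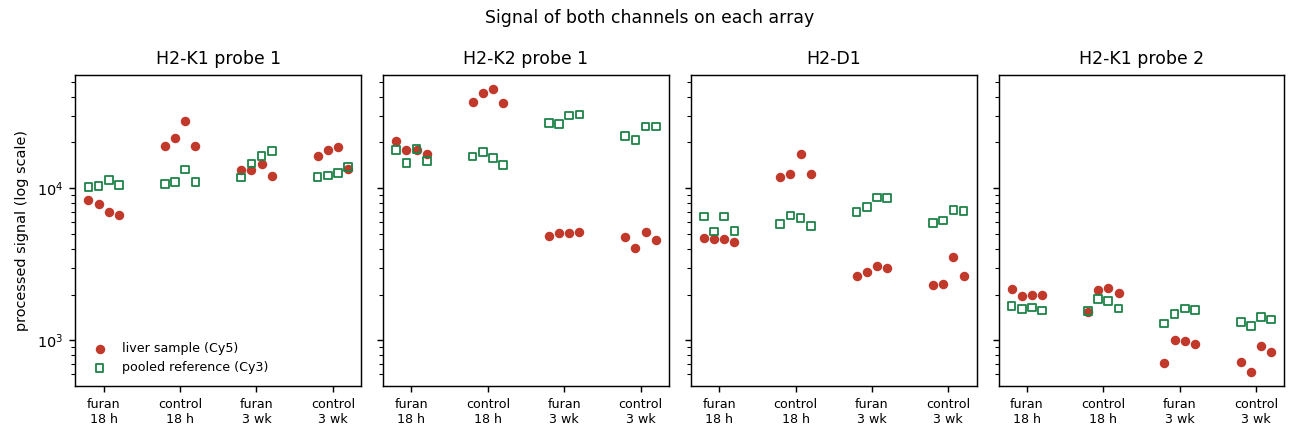
Processed signal (log axis, linear Agilent units) of the liver sample in Cy5 and of the pooled reference in Cy3 on each of the 16 arrays, for 4 probes. At 18 h the Cy5 points of H2-K1 probe 1, H2-K2 probe 1 and H2-D1 are lower in furan livers while the Cy3 points overlap; the Cy3 points of H2-K2 probe 1 are higher on all 3-week arrays than on all 18 h arrays.

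The members' patterns over the 15 samples were also set against those of 13044 other genes. For each member, taken by its brightest tested probe, the gene with the highest Pearson r is named. The r left after the group means are taken off stands beside it, since the 4 groups differ and alone give a high r. H2-K2 was most like H2-Q7 (r = 0.998, 0.898 within groups), another class I heavy chain, whose probe may bind the same transcripts. H2-Q7 also fell with the time in formalin, by 2.14 in furan livers (SE 0.10) and by 2.91 in control livers (SE 0.10). H2-K1 probe 1 was most like Ech1, a peroxisomal enzyme of fatty acid oxidation (0.973 and 0.887), and H2-D1 like Hrg, a plasma glycoprotein of hepatocytes (0.992 and 0.52). The 2 H2-K1 probes correlated with each other at r = 0.118 (0 within groups), so the likeness to Ech1 is that of 1 probe. For H2-D1 the next gene, the pan-leukocyte marker Laptm5, was as close (0.9918, against 0.9919 for Hrg). For H2-K2 the next was Cyp2d22 (0.9972, against 0.9976 for H2-Q7). Each named gene has the highest of 13044 values over 15 samples, so its r is high by selection. H2-T23 was most like Serping1, the C1 inhibitor (0.977 and 0.798). Psmb8 was most like the noncoding RNA Tug1 (0.931 and 0.835), Tapbp like Otc, a urea cycle enzyme (0.909 and 0.824), Tap2 like Fam118b (0.924 and 0.852) and Psmb9 like Ak5, an adenylate kinase (0.801 and 0.855). All samples were measured against 1 pool, so these values describe the arrays together with the livers.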

How the data were processed

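Total RNA of formalin-fixed, paraffin-embedded mouse livers was measured on Agilent 2-colour arrays. Intensities of spots and their local background, processed signals and a log10 ratio came from Feature Extraction 11.0.1.1, per the file headers, which name build mm9. The deposited value table holds the authors' log2 ratios of sample over reference. Its columns had medians from -0.00919 to 0.0247 and correlated with the ratios computed here at r of at least 0.856, so its scale and direction were taken as the same. How the authors normalized it is not given in the sources used here.

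Intensities were background-corrected (normexp, offset 50) and loess-normalized within arrays in limma 3.58.1 under R 4.3.3. Flagged spots were left out (187 to 308 per array) and repeated spots were averaged per probe. Probes entered the tests if they exceeded background clearly (Agilent's flag) in Cy5 on 3 or more arrays within any 1 group. Symbols came from the RefSeq table through the probe's accession: 27235 probes had one and 28446 had none. Each comparison was fitted across 29690 probes with the slide as a term (1.5 for the averaged sample), and p-values were adjusted by Benjamini-Hochberg. Furan was compared with control within 18 h or within 3 weeks only, while the other comparisons drew on all 15 samples. In simulated data with 200 probes changed 2-fold, 90% were recovered for the 18 h furan comparison, 49.5% for 3 weeks and 65% for the difference between them. The simulated probes were drawn independently of each other, and far fewer were changed than the 47.2% called at 18 h. These shares therefore do not give the power of the real comparisons.

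The members and lists were chosen with earlier results of these data known. Named list genes are up to 3 with the smallest p at 18 h and up to 2 at 3 weeks. B2m, H2-Q1, H2-M3, H2-T10, Hfe and H2-DMb1 at 18 h and the marker genes named were picked after their values were seen. The numbers were not taken as pairs, since the labels do not say what they mark. Same-numbered samples at the 2 times deviated together at r of 0.019 to 0.182, which does not settle whether they pair. The fits of all 15 samples treat them as independent. Alternatives covered background, normalization, filter, slide, weights, samples and each replicate left out. Protein identities of the heavy chains were not analysed here.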

Additional observations from a re-analysis of the deposited data

Results flagged for a closer look

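On 5 member probes the furan difference at 3 weeks in formalin differed from that at 18 h by the test of the difference itself (limma, all 15 samples). Of all tested probes 12.8% passed this test, 7.82% as higher. The 3-week value minus the 18 h value was 0.82 for H2-K1 probe 1, with a furan difference of -0.54 at 3 weeks and -1.36 at 18 h. It was 1.00 for H2-K2 probe 1, with -0.14 at 3 weeks and -1.14 at 18 h, and 0.87 for H2-K2 probe 2, with -0.37 at 3 weeks and -1.24 at 18 h. It was 1.105 for H2-D1, with -0.20 at 3 weeks and -1.30 at 18 h, and 0.69 for H2-T23, with -0.57 at 3 weeks and -1.26 at 18 h. Time and number of sections cannot be told apart in these values. The 5 calls were not equally firm. H2-K1 probe 1 and H2-T23 lost theirs in limma without the slide term (adjusted p = 0.0531 and 0.0567). They also lost them with the slide as a random block (adjusted p = 0.0512 and 0.0554). Among 33 groups of 4 samples, 0 had a sample far from the others, where chance gives about 5%. The 3-week control group, with 3 samples, was not part of this count. Its sample 6 was at -0.09 on H2-K1 probe 1, against 0.54 and 0.59 in samples 2 and 4. On H2-T23 it was at -0.44, against 0.13 and 0.23.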

How the results depend on the processing

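The 18 h count of 7 called member probes, all lower, stayed at 7 without each replicate in turn. Over the other 17 settings 5 to 7 were lower, and 1 was higher in 4 of them (Tap2 with Agilent's log ratios, with the authors' values and at a threshold of 0.1, H2-K1 probe 2 with median centring). The 3-week count of 0 stayed at 0 without each replicate, and became 3 when all 15 samples shared 1 fit. The count of 5 for the difference between the times was 3 without the slide term, 3 with the slide as a random block, and 4 to 6 without each replicate. The counts for the time in formalin were 3 in furan livers (main 6; 5 to 6 without each replicate) and 3 in control livers (main 7; 7 to 8) with the share of probes above background as a covariate, where the calls over all 29690 tested probes also fell, to 4475 in furan livers (main 19935) and 5662 in control livers (main 17621). Psmb8 then turned in control livers, to 0.018 (main -0.63). The share above background was lower on every 3-week array than on every 18 h array, so that fit can hardly tell it from the time. The sample numbers were not taken as pairs, since the labels do not say what they mark. Same-numbered samples correlated above 0.1 for only 2 of 7 numbers, but 5 of 7 correlated best with their own number. Whether they pair is thus not settled. With the replicate block the counts were 4 for the difference, 6 in furan livers and 7 in control livers, and H2-T23 gave 0.70 (adjusted p = 0.0662). Calls over all probes at 3 weeks split into 26 higher and 9 lower, beside 2082 and 235 with median centring and 204 and 245 without background subtraction. For the difference they split into 2322 and 1465, beside 918 and 2421 with median centring and 2202 and 2806 with the authors' values. At 18 h they split into 7758 and 6336 with the authors' values. Quantile scaling of the average intensity after loess cannot change a ratio and gave identical values. Tap1 and, at 3 weeks, Tap2 lie below what these arrays measure.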
